A study of Mus musculus with 14 samples.

Results

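The 40 genes described here build the traffic system of the early secretory pathway. They encode the coats COPII and COPI, their GTPases and cargo receptors, and the channel through which new proteins enter the endoplasmic reticulum (ER). They were taken by gene symbol from a list of 40 symbols, and all 40 were found among the 40800 genes of the count table and passed the filter on low counts. Where a gene had several transcript rows (19 of the 40), the row with the most reads stood for it. Mouse embryonic fibroblasts, cells cultured from the connective tissue of mouse embryos, were starved and their total RNA was sequenced in 14 libraries, 2 per group. The groups were amino acid starvation for 3, 6 and 12 h, glucose starvation for 3, 6 and 12 h, and control cells at 0 h. The labels name no strain, genotype or line. Nothing in them tells separate cultures from repeat preparations within a group, and p-values therefore cover the spread of these libraries alone, which may be technical. During starvation and freezing the medium held dialyzed serum, whereas control cells kept full medium and were frozen with ordinary serum. Comparisons with the control include that handling, and all 6 share the same pair of control libraries. Amino acid against glucose starvation at a matched time does not use the controls.

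Proteins bound for secretion or for membranes carry a signal that is read by the signal recognition particle, whose receptor at the ER includes the product of Srpr. They then pass through the Sec61 channel. COPII buds cargo from the ER: Preb (also known as SEC12) loads the GTPase SAR1 with GTP, SAR1 recruits the inner coat of SEC23 and SEC24, SEC24 picks the cargo, and SEC13 with SEC31 forms the outer cage at exit sites organised by SEC16. COPI, recruited by ARF GTPases that GBF1 activates, returns escaped ER proteins from the Golgi through the KDEL receptors and the p24 (TMED) family. Fibroblasts use this route heavily because they secrete collagen and other matrix proteins.

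Summed over the row that stood for each gene, libraries held 35270751 to 55349673 reads. Levels are given as CPM, read counts relative to library size after TMM scaling (a trimmed-mean correction of library sizes). A gene is said to rise, fall or differ where its p from edgeR's quasi-likelihood test, adjusted by Benjamini-Hochberg over the 17696 genes tested, was under 0.05. Of 10 fibroblast markers, 8 had at least 1 CPM in control cells, whereas Thy1 was at 0 there. The summed fibroblast markers were at 7292 to 7577, 4963 to 5084 and 2238 to 2440.0 CPM at 3, 6 and 12 h of amino acid starvation and at 8881 to 9106, 8082 to 8158 and 5402 to 5447 CPM of glucose starvation, against 7468 to 8241 CPM in control cells. Single markers parted: at 6 h without amino acids mean Fn1 was 2938 CPM, against 1515 CPM in control cells. Col1a1 was at 699.6 against 2352 CPM and Vim at 893 against 2246 CPM. Of the markers of other cell types, 3 of 6 for macrophages, 1 of 5 for endothelium, 0 of 5 for epithelium, 2 of 4 for skeletal muscle, 2 of 4 for neural cells and 0 of 3 for erythroid cells had at least 1 CPM in control cells, and Ptprc, Adgre1, Sox2 and Sox10 were at 0 there. The endothelial sum was 4.21 to 5.08 CPM in control cells, 19.8 to 23.5, 21.9 to 23.6 and 13.7 to 14.9 CPM at 3, 6 and 12 h without amino acids, and 21.8 to 22.97, 17.6 to 18.2 and 12.6 to 12.7 CPM without glucose. Kdr made up nearly all of it, with means of 4.40 CPM in control cells and 21.3 CPM at 3 h without amino acids. Pecam1, Cdh5, Tek and Emcn were each under 1 CPM in all groups. The neural sum was 260.1 to 261 CPM in control cells, 321 to 323, 162 to 169 and 107 to 113 CPM at 3, 6 and 12 h without amino acids, and 377 to 399, 323 to 329 and 120.4 to 121 CPM without glucose. Nes and Tubb3 made up nearly all of it, with means of 232.5 and 27.9 CPM in control cells. The part of other cell types in the results below was not tested, and in bulk RNA fewer cells of a type and less RNA per cell cannot be told apart.

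At each time of amino acid starvation 22 to 28 of the 40 genes fell, whereas 5 to 10 fell at the times of glucose starvation. After 6 h without amino acids 28 of 40 fell and 5 rose, beside 32.3% higher and 33.3% lower of all genes tested. At 3 h 22 of 40 fell and 6 rose (all genes, 27.9% higher and 32.1% lower), and at 12 h 23 of 40 fell and 4 rose (all genes, 34.9% higher and 32.0% lower). The median log2 fold change of the 40 was -0.17, -0.40 and -0.24 at 3, 6 and 12 h, and that of all genes tested -0.07, -0.01 and 0.06. Along glucose starvation 8 rose and 5 fell at 3 h (all genes, 20.3% higher and 23.1% lower), 10 rose and 10 fell at 6 h (all genes, 23.3% higher and 24.2% lower), and 17 rose and 8 fell at 12 h (all genes, 30.4% higher and 28.0% lower). The medians were 0.04, 0.00 and 0.07, close to those of all genes (-0.04, -0.01 and 0.01). Falls of at least 2-fold were found for 3 genes at 6 h (Sec61b, Copg2 and Copz2) and 4 at 12 h without amino acids (Sec61b, Sec61g, Sec24d and Sec31a), beside 12.9% and 14.2% of all genes. Single libraries moved the smaller counts: 5 genes rose and 8 fell at 3 h of glucose starvation without its replicate 2, 5 fell at 12 h of glucose starvation without its replicate 2, and 2 rose at 12 h of amino acid starvation without its replicate 1. Among the 25 members that overlap no other annotated gene, 18 fell and 2 rose at 6 h without amino acids, and 6 fell and 9 rose at 12 h without glucose. With library totals as the only scaling the counts were 3 higher and 29 lower, then 4 higher and 31 lower, then 11 higher and 18 lower along amino acid starvation, and 1 higher and 19 lower, then 3 higher and 18 lower, then 12 higher and 14 lower along glucose starvation. That scaling moved the median of all genes as well, to -0.21 at 3 h of glucose starvation and 0.19 at 12 h of amino acid starvation. Relative to the median of all genes, the 40 were at a median difference of -0.30 at 12 h of amino acid starvation under TMM and of -0.30 under library totals. A change of scaling shifts all genes of a comparison alike, so this difference could not move and is no check of the scaling.

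**Figure D1:**
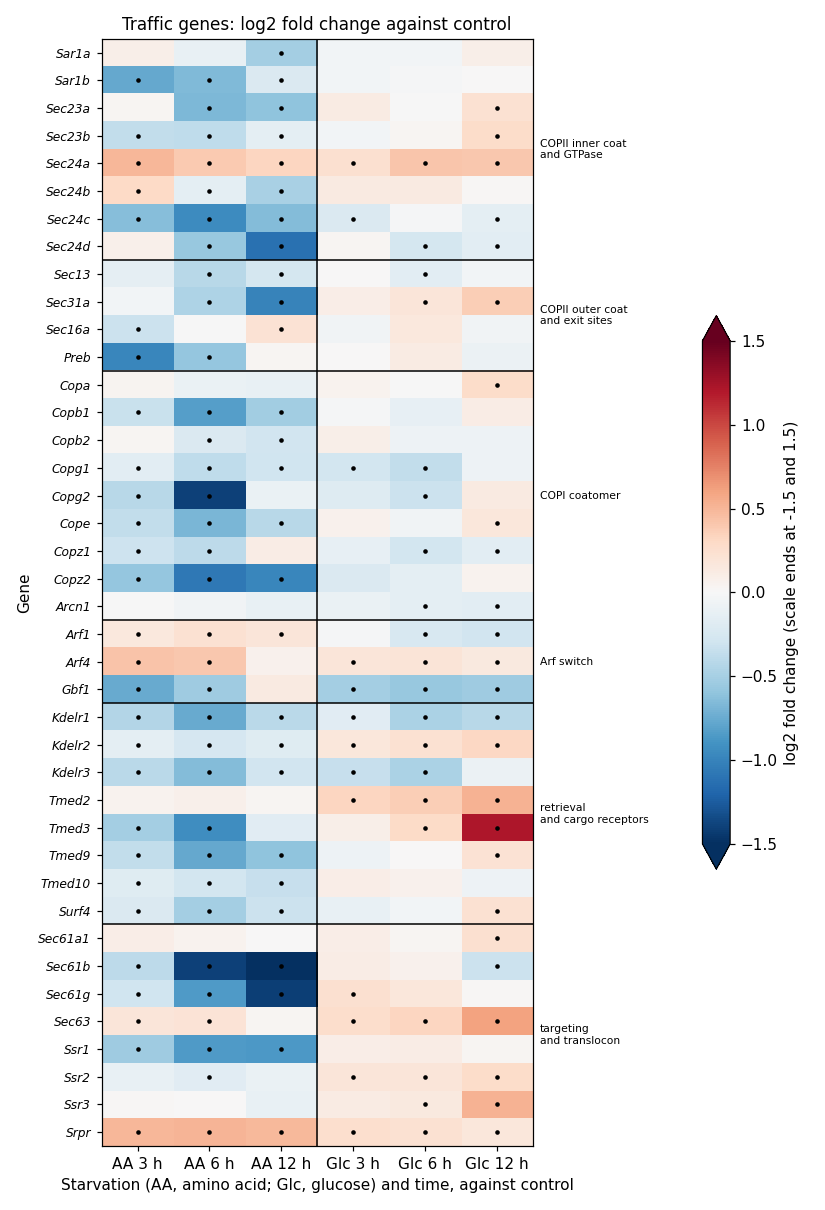
Log2 fold change of each of the 40 genes against control (colour, ending at -1.5 and 1.5), with time of amino acid (AA) and glucose (Glc) starvation across and genes down, grouped by role. Dots mark an edgeR adjusted p under 0.05. Blue cells fill the amino acid columns at 6 h, where 28 genes fell, and Sec61b reached -2.19 at 12 h.

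The genes of the accessory subunits of the protein-conducting channel were the lowest of the 40 at 12 h without amino acids, while that of its pore subunit did not pass the test. Sec61b had 57.4 and 54.1 CPM in control cells at 0 h and, under amino acid starvation, 40.7 and 44.6 CPM at 3 h, 21.5 and 20.9 CPM at 6 h and 12.3 and 12.03 CPM at 12 h. The glucose-starved libraries held 55.3 and 65.00 CPM at 3 h, 57.04 and 59.8 CPM at 6 h and 43.6 and 45.9 CPM at 12 h. Sec61b encodes the small beta subunit of the channel, and its level was lower at each successive time without amino acids, with no overlap between the groups. At 12 h it was 4.58-fold below the control (log2 fold change -2.19 ± 0.083 SE, adjusted p = 1.4e-19 by edgeR), and at 12 h of glucose starvation the fold change was -0.32 ± 0.076 SE.

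Sec61g had 62.1 and 59.2 CPM in control cells at 0 h and, under amino acid starvation, 48.1 and 50.1 CPM at 3 h, 33.4 and 33.9 CPM at 6 h and 21.9 and 23.8 CPM at 12 h. At 3, 6 and 12 h of glucose starvation its levels were 67.2 and 76.4, 63.5 and 72.8, and 59.5 and 63.05 CPM. Sec61g, the gene of the gamma subunit that clamps the pore from the side, followed the same order of times without amino acids, and its glucose-starved libraries lay above the control libraries or overlapped them. Its log2 fold changes against control were -0.30, -0.85 and -1.41 without amino acids at 3, 6 and 12 h, and without glucose 0.24, 0.17 and 0.01. Sec61a1 had 306 and 304 CPM in control cells at 0 h and, under amino acid starvation, 329 and 327 CPM at 3 h, 323 and 312 CPM at 6 h and 311 and 302 CPM at 12 h. Without glucose, Sec61a1 stood at 317 and 334 CPM, 315 and 306 CPM and 366 and 353 CPM over the same times. The pore subunit gene Sec61a1 passed the test at no time of amino acid starvation and rose at 12 h of glucose starvation (0.24 ± 0.051 SE).

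The ratios of Sec61b and Sec61g to Sec61a1 were chosen after the values were seen, so they give sizes and add no support. Because the counts of both genes come from the same library, the ratio of Sec61b to Sec61a1 does not depend on scaling. Its log2 value was -4.65 and -4.65 at 12 h of amino acid starvation, against -2.41 and -2.49 in control cells. For Sec61g to Sec61a1 it was -3.83 and -3.67, against -2.30 and -2.36. Per kilobase of transcript, Sec61b and Sec61a1 were at 21.6 and 96.6 CPM at 12 h of amino acid starvation and at 98.9 and 96.1 CPM in control cells. The Sec61b row is short (564 bases), and among the 2065 tested genes with rows of up to 750 bases the median log2 fold change at 12 h was -0.16, with 4.94% of them below Sec61b. Sec61g had 5 rows of different lengths, of which the second held 98.8% as many reads as the first.

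The promoter of Sec61b, the gene with the deepest fall, is given as RefSeq has it on build GRCm38.p6 (chr4:47474411-47474710, plus strand), from 250 bases before to 50 after the transcription start.
Sec61b: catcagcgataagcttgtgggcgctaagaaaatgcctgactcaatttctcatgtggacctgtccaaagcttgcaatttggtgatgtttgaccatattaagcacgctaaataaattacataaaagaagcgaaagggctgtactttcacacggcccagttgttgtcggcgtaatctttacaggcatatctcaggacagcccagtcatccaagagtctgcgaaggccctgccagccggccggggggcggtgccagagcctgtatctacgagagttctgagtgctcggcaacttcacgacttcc

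The other targeting and translocon genes split. Ssr1 had 229 and 264 CPM in control cells at 0 h and, under amino acid starvation, 169 and 172 CPM at 3 h, 136 and 138 CPM at 6 h and 128 and 142 CPM at 12 h. Under glucose starvation it had 269 and 259 CPM, 258 and 272 CPM and 254 and 250.2 CPM at the same times. Ssr1 encodes a subunit of the translocon-associated protein (TRAP) complex, and it fell at all 3 times of amino acid starvation and passed the test at none of glucose starvation. The TRAP subunit genes Ssr2 and Ssr3 had log2 fold changes of -0.12, -0.17 and -0.10, and of 0.02, 0.01 and -0.11, along amino acid starvation, of which only that of Ssr2 at 6 h passed. Along glucose starvation Ssr2 rose at all 3 times (0.18, 0.18 and 0.27), and Ssr3 rose at 6 and 12 h, with 458 and 457 CPM at 12 h against 304 and 335 CPM in control cells. Sec63, a partner of the channel that recruits the chaperone BiP, rose at 3 and 6 h without amino acids and at all 3 times without glucose, up to 0.60 ± 0.059 SE.

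Srpr had 135 and 138 CPM in control cells at 0 h and, under amino acid starvation, 187 and 198 CPM at 3 h, 193 and 196 CPM at 6 h and 195 and 188 CPM at 12 h. The glucose-starved libraries held 160.2 and 166 CPM at 3 h, 155 and 164 CPM at 6 h and 151 and 156 CPM at 12 h. Srpr, the gene of the alpha subunit of the signal recognition particle receptor, rose at all 3 times of both starvations, with log2 fold changes of 0.50, 0.51 and 0.49 without amino acids and 0.26, 0.23 and 0.17 without glucose. It overlaps Fam118b and Tirap on the opposite strand, and whether counting used strand is not stated. Their log2 fold changes along amino acid starvation were -0.13, 0.43 and 0.91, and -0.45, 0.13 and 0.34. Within the group of 8, 3 fell and 2 rose at 3 h, 4 fell and 2 rose at 6 h, 3 fell and 1 rose at 12 h without amino acids. Among all genes 32.1%, 33.3% and 32.0% were lower and 27.9%, 32.3% and 34.9% higher at these times. Without glucose 0 fell and 4 rose at 3 h, 0 fell and 4 rose at 6 h, 1 fell and 5 rose at 12 h. Among all genes 23.1%, 24.2% and 28.0% were lower and 20.3%, 23.3% and 30.4% higher.

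**Figure D2:**
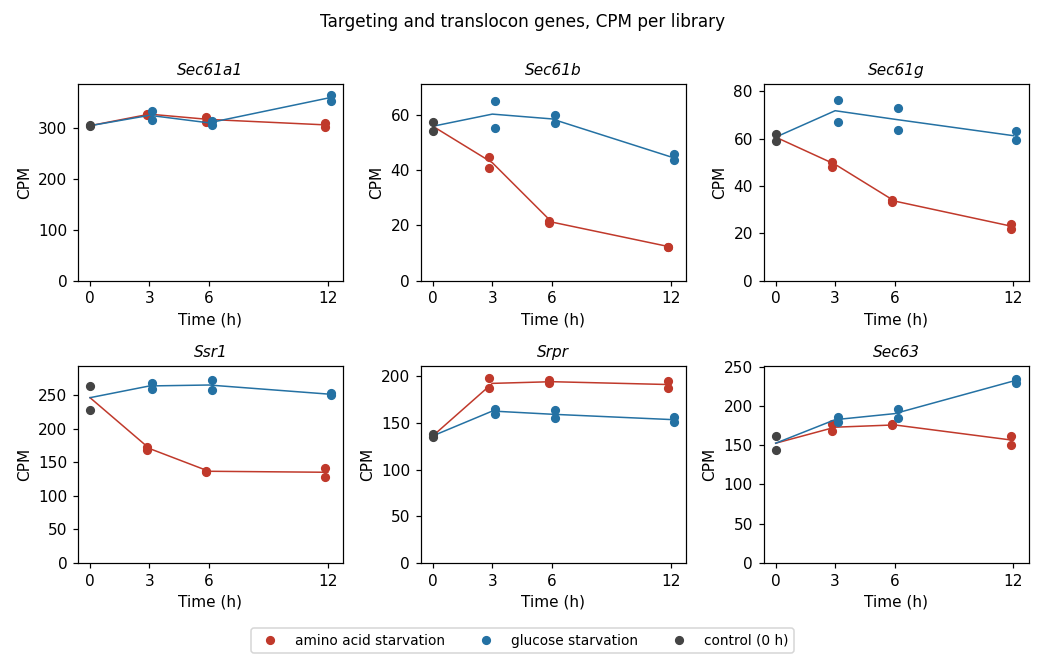
CPM of 6 targeting and translocon genes in each library (points) against time in hours, with lines through group means that start at the control. Sec61b and Sec61g drop along amino acid starvation to 12.2 and 22.8 CPM at 12 h, while Sec61a1 stays near 306 CPM.

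In the COPII coat, the outer-cage gene Sec31a and the cargo adaptor genes Sec24c and Sec24d fell without amino acids, and Sec24a rose. Sec31a had 236 and 234 CPM in control cells at 0 h and, under amino acid starvation, 232 and 225 CPM at 3 h, 171 and 169 CPM at 6 h and 117 and 117 CPM at 12 h. At 3, 6 and 12 h of glucose starvation its levels were 255 and 249, 266 and 268, and 306 and 301 CPM. Without amino acids Sec31a fell at 6 and 12 h, and without glucose it rose at the same times, so the starvations stood on opposite sides of the control. The fold changes were -1.0 ± 0.051 SE at 12 h of amino acid starvation and 0.37 ± 0.05 SE at 12 h of glucose starvation, and the direct difference was -1.37 (2.59-fold, SE 0.051, edgeR adjusted p = 1.7e-19). Its partner Sec13, which is also part of the nuclear pore, had log2 fold changes of -0.13, -0.41 and -0.27 without amino acids.

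Sec24d had 79.7 and 76.8 CPM in control cells at 0 h and, under amino acid starvation, 81.7 and 82.7 CPM at 3 h, 52.8 and 52.6 CPM at 6 h and 36.99 and 35.2 CPM at 12 h. Without glucose, Sec24d stood at 83.7 and 75.3 CPM, 66.5 and 64.1 CPM and 67.2 and 72.6 CPM over the same times. Sec24d did not pass at 3 h and fell at 6 and 12 h without amino acids, with log2 fold change -1.12 ± 0.065 SE, adjusted p = 4.05e-15 by edgeR at the later time. Sec24c had 175 and 169.7 CPM in control cells at 0 h and, under amino acid starvation, 113 and 108 CPM at 3 h, 92.1 and 87.6 CPM at 6 h and 113 and 106 CPM at 12 h. Under glucose starvation it had 149 and 147 CPM, 170.4 and 168 CPM and 158 and 153 CPM at the same times. Sec24c was lowest at 6 h without amino acids, at -0.94, and its 12 h libraries lay between those of 6 h and the control. Sec24a had 52.2 and 56.5 CPM in control cells at 0 h and, under amino acid starvation, 77.2 and 76.4 CPM at 3 h, 71.2 and 71.7 CPM at 6 h and 71.4 and 64.2 CPM at 12 h. The glucose-starved libraries held 68.6 and 60.2 CPM at 3 h, 74.1 and 70.7 CPM at 6 h and 74.6 and 69.00 CPM at 12 h. Sec24a rose at all 3 times of both starvations, and the groups did not overlap the control. Sec24b rose at 3 h without amino acids (0.30 ± 0.061 SE) and fell at 6 and 12 h (-0.15 and -0.49).

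Preb had 102 and 102 CPM in control cells at 0 h and, under amino acid starvation, 52.7 and 51.6 CPM at 3 h, 70.95 and 66.3 CPM at 6 h and 104 and 104 CPM at 12 h. At 3, 6 and 12 h of glucose starvation its levels were 101 and 104, 110.3 and 113, and 95.2 and 98.1 CPM. Preb was lowest at 3 h without amino acids (log2 fold change -0.97 ± 0.057 SE, adjusted p = 8.84e-15 by edgeR) and no longer passed the test at 12 h (0.03), and it passed at no time of glucose starvation. The row that stands for it has 6300 bases and overlaps Abhd1 on the opposite strand, whose levels were 7.23, 11.1 and 16.6 CPM along amino acid starvation against 10.9 CPM in control cells. Sar1b had 34.9 and 41.2 CPM in control cells at 0 h and, under amino acid starvation, 22.2 and 22.3 CPM at 3 h, 24.4 and 23.7 CPM at 6 h and 31.5 and 33.95 CPM at 12 h. Without glucose, Sar1b stood at 36.9 and 36.9 CPM, 36.01 and 38.8 CPM and 38.3 and 37.8 CPM over the same times. Sar1b, one of the pair of SAR1 GTPases, had its lowest level at 3 h as well (-0.77), whereas Sar1a did not pass at 3 or 6 h and fell at 12 h (-0.50). Sec16a fell at 3 h (-0.32) and rose at 12 h (0.21) without amino acids.

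Sec23a and Sec23b, which encode alternative forms of the inner coat subunit that stimulates SAR1, moved at different times. Without amino acids Sec23a had log2 fold changes of 0.03, -0.67 and -0.60 and Sec23b of -0.37, -0.38 and -0.14. At 12 h of glucose starvation both rose, by 0.22 and 0.28. Within libraries the log2 ratio of Sec23a to Sec23b differed from control by 0.40, -0.29 and -0.46 at 3, 6 and 12 h without amino acids. For Sec24d to Sec24a these differences were -0.43, -0.96 and -1.43. For Sec24b to Sec24c they were 0.93, 0.79 and 0.17, and for Sar1b to Sar1a -0.86, -0.55 and 0.29. Of the 8 inner coat and GTPase genes, 3 fell and 2 rose at 3 h, 6 fell and 1 rose at 6 h and 7 fell and 1 rose at 12 h without amino acids. Without glucose 1 fell and 1 rose at 3 h, 1 fell and 1 rose at 6 h and 2 fell and 3 rose at 12 h. Over all genes tested the shares at 3, 6 and 12 h without amino acids were 32.1%, 33.3% and 32.0% lower and 27.9%, 32.3% and 34.9% higher. Without glucose they were 23.1%, 24.2% and 28.0% lower and 20.3%, 23.3% and 30.4% higher.

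**Figure D3:**
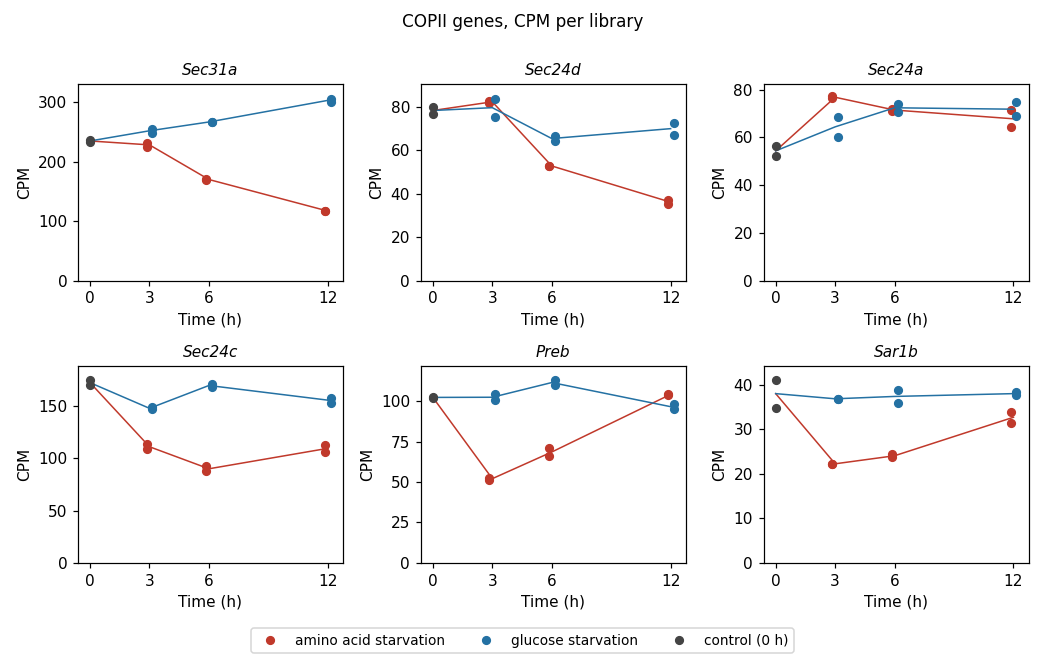
CPM of 6 COPII genes in each library (points) against time in hours, with lines through group means that start at the control. Sec31a parts between the starvations, at 117 CPM without amino acids and 303 CPM without glucose at 12 h, and Preb dips to 52.1 CPM at 3 h without amino acids.

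Promoter windows in RefSeq (build GRCm38.p6, 250 bases before to 50 after the start) were found for 35 of the 40 genes, in 38 distinct windows, and were searched for short motifs on both strands. The letters TGACGTGG, the core of the unfolded protein response element, stood in 8 of 38 member windows (21.1%), which belong to 7 genes, and in 222 of 32544 windows of all genes (0.682%). Both windows of Arf1 overlap and hold the same match. The shorter TGACGT, which lies within TGACGTGG, stood in 16 member windows, beside 7.55% of all windows, and TGATGNAA, a core of ATF4 sites, in 1 (Kdelr1), beside 3.91% of all. The ER stress response element (ERSE) stood in 0 member windows, beside 0.12% of all. A match describes the letters and shows no binding. The 7 genes with TGACGTGG are shown 5′ to 3′ on the gene's strand, 40 bases each, with the match in capitals (TGACGTGG or its reverse complement CCACGTCA).
Sec24d (chr3:123267454-123267493, plus strand): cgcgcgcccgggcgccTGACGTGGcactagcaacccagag
Sec23a (chr12:59011988-59012027, minus strand): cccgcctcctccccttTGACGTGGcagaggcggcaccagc
Copb1 (chr7:114254685-114254724, minus strand): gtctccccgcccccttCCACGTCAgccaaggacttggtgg
Copb2 (chr9:98563708-98563747, plus strand): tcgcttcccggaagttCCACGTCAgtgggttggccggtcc
Gbf1 (chr19:46152530-46152569, plus strand): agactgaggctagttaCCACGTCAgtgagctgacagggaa
Kdelr3 (chr15:79516362-79516401, plus strand): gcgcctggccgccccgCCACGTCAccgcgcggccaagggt
Arf1 (chr11:59228223-59228262, minus strand): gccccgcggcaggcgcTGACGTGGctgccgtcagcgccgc

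Without amino acids at 6 h, 6 of these 7 fell and 1, Arf1, rose, with log2 fold changes of -0.83 to 0.23. Of all 40 members 28 fell and 5 rose at that time, beside 33.3% lower and 32.3% higher of all genes. Without glucose at 12 h, 3 of the 7 fell and 1 rose (-0.53 to 0.22). Of all 40 members 8 fell and 17 rose there, beside 28.0% lower and 30.4% higher of all genes. The whole window of Sec24d, the member of the 7 with the deepest fall, is chr3:123267246-123267545 on the plus strand.
Sec24d: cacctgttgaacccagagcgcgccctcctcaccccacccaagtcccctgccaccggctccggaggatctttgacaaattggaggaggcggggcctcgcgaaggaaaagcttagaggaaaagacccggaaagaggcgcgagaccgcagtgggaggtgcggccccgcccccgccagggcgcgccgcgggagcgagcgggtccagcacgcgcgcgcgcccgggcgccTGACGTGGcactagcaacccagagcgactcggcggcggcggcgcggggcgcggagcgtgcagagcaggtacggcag

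COPI coatomer genes fell more often than they rose without amino acids. Of the 9 genes, 6, 7 and 5 fell and 0 rose at 3, 6 and 12 h without amino acids (all genes, 32.1%, 33.3% and 32.0% lower and 27.9%, 32.3% and 34.9% higher). Without glucose 1, 4 and 2 fell and 0, 0 and 2 rose (all genes, 23.1%, 24.2% and 28.0% lower and 20.3%, 23.3% and 30.4% higher). Copa and Arcn1, the genes of the alpha and delta subunits, passed the test at no time of amino acid starvation (0.04, -0.10 and -0.11, and 0.00, -0.06 and -0.11). Copb1 and Cope, of the beta and epsilon subunits, fell at all 3 times and most at 6 h, to -0.83 and -0.69. Copb2, of the beta prime subunit, fell at 6 and 12 h (-0.22 and -0.29).

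Copg2 had 26.3 and 26.3 CPM in control cells at 0 h and, under amino acid starvation, 20.1 and 19.4 CPM at 3 h, 10.6 and 9.49 CPM at 6 h and 24.9 and 24.2 CPM at 12 h. Under glucose starvation it had 23.8 and 22.3 CPM, 20.7 and 21.2 CPM and 29.98 and 27.7 CPM at the same times. Copg2, the lower expressed of the pair of gamma subunit genes, dropped at 6 h without amino acids (log2 fold change -1.40 ± 0.089 SE, adjusted p = 3.39e-14 by edgeR) and did not pass at 12 h (-0.10). It overlaps Mest on the opposite strand, whose row was at 0.385 CPM at 6 h without amino acids against 1.03 CPM in control cells, with log2 fold changes of -0.18, -1.42 and -0.16 at 3, 6 and 12 h, beside -0.41, -1.40 and -0.10 for Copg2. Copg1 changed by -0.16, -0.38 and -0.30. The log2 ratio of Copg2 to Copg1 within a library was -4.22 and -4.31 at 6 h without amino acids, against -3.32 and -3.18 in control cells.

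Copz2 had 14.5 and 13.2 CPM in control cells at 0 h and, under amino acid starvation, 9.22 and 9.34 CPM at 3 h, 6.73 and 6.51 CPM at 6 h and 6.49 and 7.55 CPM at 12 h. The glucose-starved libraries held 10.7 and 13.2 CPM at 3 h, 12.1 and 12.8 CPM at 6 h and 14.7 and 14.2 CPM at 12 h. Copz2, one of the pair of zeta subunit genes, fell at all 3 times without amino acids (-1.07 ± 0.12 SE at 6 h) and passed at none without glucose. Copz1 fell at 3 and 6 h (-0.31 and -0.39) and did not pass at 12 h (0.11). The log2 ratio of Copz2 to Copz1 was -4.13 and -4.05 at 12 h without amino acids, against -2.88 and -3.12 in control cells. With 2 libraries a group, no exact test of such ratios could reach a p under 0.05, and none was run.

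The genes that switch COPI on went different ways. Gbf1 had 161 and 162 CPM in control cells at 0 h and, under amino acid starvation, 102 and 89.1 CPM at 3 h, 113 and 110 CPM at 6 h and 185 and 171 CPM at 12 h. At 3, 6 and 12 h of glucose starvation its levels were 118 and 109, 109 and 109, and 116 and 107 CPM. Gbf1, the exchange factor that activates ARF1 at the early Golgi, fell at all 3 times without glucose, and without amino acids it fell at 3 and 6 h and was not below the control at 12 h (-0.76, -0.53 and 0.14). At 12 h it was 1.59-fold higher without amino acids than without glucose (log2 fold change 0.67 ± 0.063 SE, adjusted p = 1.92e-10 by edgeR). Arf1 had 488 and 467 CPM in control cells at 0 h and, under amino acid starvation, 535 and 534 CPM at 3 h, 562 and 560.4 CPM at 6 h and 541 and 543 CPM at 12 h. Without glucose, Arf1 stood at 452 and 492 CPM, 402 and 405 CPM and 385 and 397 CPM over the same times. Arf1 rose at all 3 times without amino acids and fell at 6 and 12 h without glucose, though with library totals its change at 3 h without amino acids was -0.01. Arf4 rose at 3 and 6 h without amino acids (0.43 and 0.40) and at all 3 times without glucose (0.18, 0.20 and 0.15).

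Among the retrieval and cargo receptors, 7, 7 and 6 of 8 fell and 0 rose at 3, 6 and 12 h without amino acids (all genes, 32.1%, 33.3% and 32.0% lower and 27.9%, 32.3% and 34.9% higher). Without glucose 2, 2 and 1 fell and 2, 3 and 5 rose (all genes, 23.1%, 24.2% and 28.0% lower and 20.3%, 23.3% and 30.4% higher). Tmed3 had 12.8 and 12.04 CPM in control cells at 0 h and, under amino acid starvation, 8.38 and 9.01 CPM at 3 h, 6.61 and 6.40 CPM at 6 h and 10.7 and 11.4 CPM at 12 h. Under glucose starvation it had 12.7 and 13.7 CPM, 15.4 and 14.96 CPM and 28.1 and 29.4 CPM at the same times. Tmed3, a p24 family member, fell at 3 and 6 h without amino acids and was 2.31-fold above the control at 12 h without glucose (log2 fold change 1.21 ± 0.097 SE, adjusted p = 8.16e-12 by edgeR). It was the only one of the 40 called at least 2-fold higher than control at any time of either starvation, beside 8.06% of all genes at 12 h without glucose. Tmed9 had 138 and 118 CPM in control cells at 0 h and, under amino acid starvation, 101 and 96.9 CPM at 3 h, 74.2 and 76.03 CPM at 6 h and 88.02 and 80.6 CPM at 12 h. The glucose-starved libraries held 116 and 127 CPM at 3 h, 127 and 129.6 CPM at 6 h and 145 and 154 CPM at 12 h. Tmed9 fell at all 3 times without amino acids and rose at 12 h without glucose. Within libraries the log2 ratio of Tmed3 to Tmed9 was -2.36 and -2.39 at 12 h without glucose, against -3.43 and -3.29 in control cells.

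Tmed2, the most abundant p24 gene here per kilobase (154 CPM in control cells), passed at no time without amino acids and rose at all 3 times without glucose (0.32, 0.37 and 0.52). Tmed10 fell at all 3 times without amino acids (-0.18, -0.27 and -0.35) and passed at none without glucose. Surf4, a receptor that carries soluble cargo out of the ER, fell at all 3 times without amino acids (-0.22, -0.51 and -0.32) and rose at 12 h without glucose (0.23). The KDEL receptors, which catch escaped ER chaperones, all fell at the 3 times without amino acids, with log2 fold changes of -0.43, -0.75 and -0.40 for Kdelr1, -0.15, -0.25 and -0.18 for Kdelr2 and -0.40, -0.65 and -0.28 for Kdelr3. Without glucose they parted: Kdelr2 rose (0.17, 0.23 and 0.31), Kdelr1 fell (-0.17, -0.47 and -0.42), and Kdelr3 fell at 3 and 6 h (-0.35 and -0.47). The log2 ratio of Kdelr3 to Kdelr2 was -2.26 and -2.29 at 6 h without glucose, against -1.54 and -1.60 in control cells. That of Kdelr3 to Kdelr1 was -0.96 and -1.08 at the same time, against -1.06 and -0.98 in control cells. Kdelr3 overlaps Ddx17 on the opposite strand, which had log2 fold changes of 0.09, 0.64 and 0.46 along amino acid starvation.

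**Figure D4:**
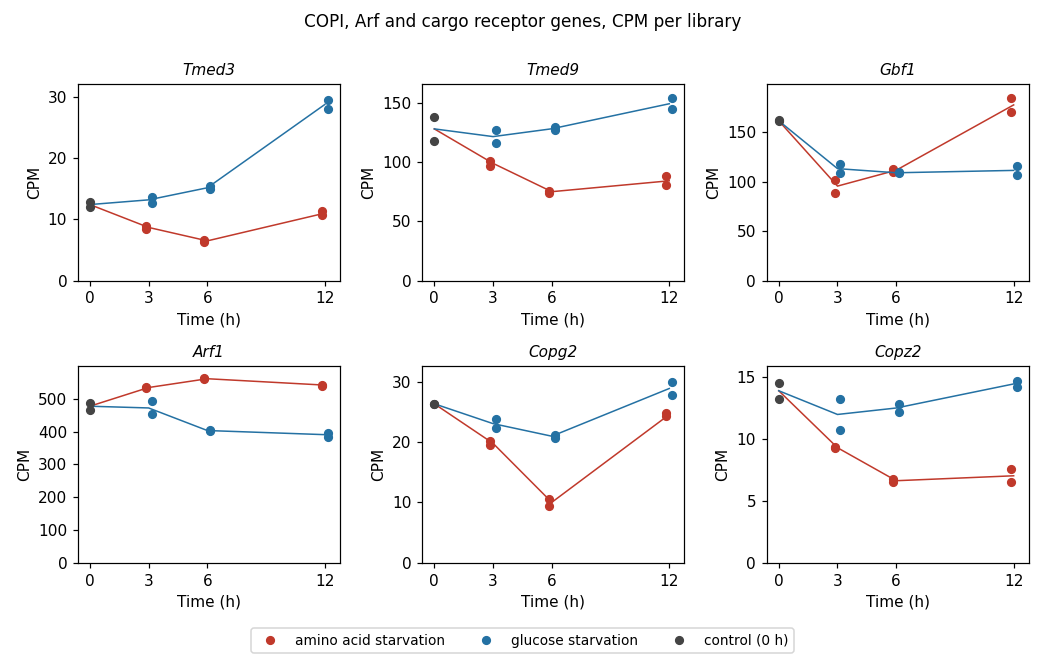
CPM of 6 cargo receptor, Arf switch and COPI genes in each library (points) against time in hours, with lines through group means that start at the control. Tmed3 reaches 28.8 CPM at 12 h without glucose, and Gbf1 returns to 178 CPM at 12 h without amino acids while it stays at 112 CPM without glucose.

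Set directly against each other at the same time, where both arms share dialyzed serum and handling, most of the 40 genes were lower under amino acid than under glucose starvation. At 3 h 22 were lower and 6 higher (all genes, 26.7% higher and 27.7% lower), at 6 h 27 were lower and 3 higher (all genes, 31.5% higher and 32.3% lower), and at 12 h 30 were lower and 5 higher (all genes, 32.5% higher and 31.6% lower). The medians of the 40 were -0.21, -0.30 and -0.40, beside -0.03, -0.01 and 0.03 for all genes. With library totals the 12 h counts were 22 lower and 9 higher. The same 17 genes were lower at all 3 times, among them Sec31a, Copb1, Tmed2, Tmed3, Tmed9, Sec61b, Sec61g and Ssr1, beside 15.8% of all genes tested. Another 2 (Arf1 and Srpr) were higher at all 3, beside 15.7% of all genes. Arcn1 passed at none.

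The largest differences at 12 h were those of Sec61b (-1.88 ± 0.083 SE), Sec61g (-1.42 ± 0.078 SE), Tmed3 (-1.38 ± 0.097 SE), Sec31a (-1.37 ± 0.051 SE) and Copz2 (-1.04 ± 0.12 SE), the 5 that were at least 2-fold lower, beside 11.3% of all genes. The 5 higher ones were Gbf1 (0.67), Arf1 (0.47), Srpr (0.31), Copz1 (0.27) and Sec16a (0.26). Against control at 12 h, 7 genes fell without amino acids and rose without glucose: Sec23a, Sec23b, Sec31a, Cope, Kdelr2, Tmed9 and Surf4. Over all genes tested, 6.11% did so. The opposite held for 1 member, Arf1, and for 5.03% of all genes. Both comparisons share the control libraries.

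**Figure D5:**
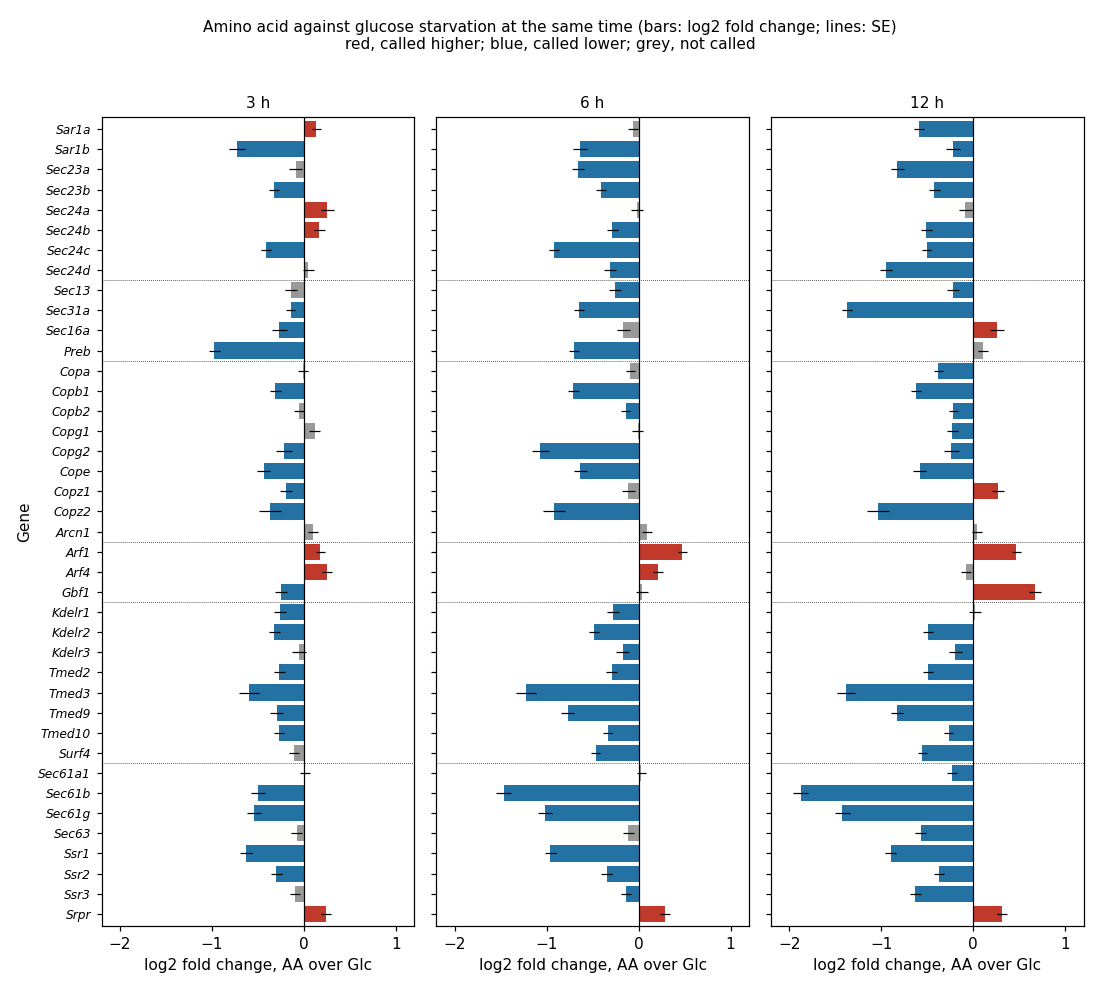
Log2 fold change of amino acid over glucose starvation for the 40 genes at 3, 6 and 12 h, with SE as lines and genes in the order of their roles from top to bottom. Most bars point left, and the lower (blue) genes number 22, 27 and 30.

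Between 3 and 12 h without amino acids 19 genes fell and 8 rose (all genes, 35.5% higher and 32.9% lower), or 7 and 26 with library totals. Of the 22 genes that had fallen at 3 h, 8 were higher at 12 h than at 3 h, 8 were lower still (among them Copz2, Ssr1 and Sec61b), and 6 did not pass, such as Sec24c (-0.02) and Kdelr1 (0.03). With library totals the changes of Copb1, Copg1, Tmed9 and Tmed10, among the 8 lower still, had the opposite sign. Of the 6 that had risen at 3 h, 4 fell afterwards (Sec24a, Sec24b, Arf4 and Sec63), though with library totals Sec24a and Sec63 had the opposite sign. Preb was higher at 12 h than at 3 h by 1.0 ± 0.057 SE, Gbf1 by 0.89 ± 0.064 SE and Sar1b by 0.56 ± 0.082 SE. Sec61b (-1.81), Sec24d (-1.19), Sec61g (-1.11) and Sec31a (-0.96) went down furthest. Between 3 and 12 h without glucose 15 rose and 7 fell (all genes, 31.8% higher and 25.5% lower), or 22 and 4 with library totals, and Tmed3 rose most (1.12 ± 0.098 SE). Over these hours 7 genes fell without amino acids and rose without glucose (Sar1a, Sec31a, Copa, Copg1, Tmed9, Sec63 and Ssr3), beside 4.95% of all genes, and with library totals the changes of Copa, Copg1, Tmed9, Sec63 and Ssr3 without amino acids had the opposite sign. The lowest of the 3 log2 fold changes without amino acids lay at 3 h for 5 genes, at 6 h for 17 and at 12 h for 18.

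A further 65 genes of the same route, among them signal peptidase, oligosaccharyltransferase, cargo receptor, tether and SNARE genes, were counted the same way. Against control, 32, 36 and 30 of them fell and 14, 14 and 24 rose at 3, 6 and 12 h without amino acids (all genes, 32.1%, 33.3% and 32.0% lower and 27.9%, 32.3% and 34.9% higher). Without glucose 15, 11 and 13 fell and 21, 24 and 39 rose (all genes, 23.1%, 24.2% and 28.0% lower and 20.3%, 23.3% and 30.4% higher). Of the 65, 37, 39 and 36 were lower and 11, 14 and 17 higher without amino acids than without glucose at 3, 6 and 12 h, with medians of -0.20, -0.21 and -0.21. The shares of all genes were 27.7%, 32.3% and 31.6% lower and 26.7%, 31.5% and 32.5% higher. Ostc, an oligosaccharyltransferase subunit gene, had 25.6 and 26.6 CPM at 12 h without amino acids, against 99.6 and 102 CPM without glucose (log2 fold change -1.95 ± 0.068 SE, adjusted p = 3.31e-20 by edgeR). Tram2, a translocon partner, was lower at 3 and 6 h (-1.26 and -1.62). At 3 h Trappc1, of a tethering complex, was lower as well (-0.91), and at 6 h Spcs3 of the signal peptidase (-1.15). Ergic1 (-1.91), Sec11c of the signal peptidase (-1.54) and the tether Uso1 (-1.43) were the next lowest at 12 h. Among the 10 translocon partners, 8 were lower and 2 higher at 12 h without amino acids than without glucose. Among tethers and SNAREs both directions were about as frequent at 12 h (7 lower and 6 higher of 16). The same held at 12 h without amino acids against control (6 fell and 8 rose). Of the 8 Arf regulators, 2 were lower and 5 higher at 12 h without amino acids than without glucose. At 3 h and at 6 h, 3 were lower and 4 higher.

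Genes linked to ER stress, or to stress more widely, were set beside the 40. The coats and receptors are among known targets of the unfolded protein response, a response to ER stress. Which stress response a change in these 12 genes reflects was not tested. Of 12 such genes, 7, 5 and 5 rose and 3, 6 and 6 fell at 3, 6 and 12 h without amino acids (all genes, 27.9%, 32.3% and 34.9% higher and 32.1%, 33.3% and 32.0% lower). Without glucose 10, 10 and 9 rose and 2, 1 and 2 fell (all genes, 20.3%, 23.3% and 30.4% higher and 23.1%, 24.2% and 28.0% lower). Hspa5, which encodes the ER chaperone BiP, had 1412 and 1424 CPM in control cells, 1634 and 1705, 1326 and 1313, and 1041 and 1108 CPM at 3, 6 and 12 h without amino acids, and 3362 and 3426, 4040.0 and 4239, and 4614 and 4649 CPM without glucose. It rose at 3 h and fell at 12 h without amino acids and rose at all 3 times without glucose. Sdf2l1, another ER chaperone gene, had a log2 fold change of -3.27 without amino acids against without glucose at 12 h. Xbp1, a transcription factor of the unfolded protein response, had 20.2 and 24.6 CPM at 12 h without amino acids and 83.1 and 85.3 CPM without glucose, against 64.3 and 66.5 CPM in control cells. Creb3l2, whose product drives secretory pathway genes, had log2 fold changes of -1.29, -1.65 and -0.81 without amino acids. Other genes of the same list rose at least 2-fold at all 3 times of both starvations, namely Atf4, Atf6, Ddit3, Dnajb9 and Herpud1. Herpud1, which takes part in ER-associated degradation, had 76.4 and 73.8 CPM in control cells and 475 and 478, 312 and 308, and 206 and 207 CPM at 3, 6 and 12 h without amino acids. Ddit3, the gene of the stress transcription factor CHOP, had log2 fold changes of 2.80, 2.80 and 2.84 without amino acids, and Atf6, a sensor of the response, of 2.11, 2.33 and 1.64. At 12 h without glucose Hspa5 had a log2 fold change of 1.71 against control. Of the 40, 17 rose and 8 fell there, from -0.53 for Gbf1 to 1.21 for Tmed3, with a median of 0.07. The 3 KDEL receptors ranged from -0.42 for Kdelr1 to 0.31 for Kdelr2. Of the 65 further traffic genes 39 rose and 13 fell, with a median of 0.28. A link between Hspa5 and these genes was not tested.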

How the data were processed

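Total RNA libraries were sequenced, and the deposited table holds the authors' whole-number counts of reads per transcript row, not normalised as far as the values show. Per the submitters' processing notes, STAR and bedtools were used with build GRCm39; versions, annotation, counting rule and use of strand are not given in the sources used here. The table had 67457 rows, 58 of them without a gene name (0% of reads). Each of 40800 genes was represented by its row with the most reads. Among members with several rows, the second row held from 4.11% (Sec24d) to 99.98% (Arf1) as many reads as the first. Overlaps came from GENCODE M21 (GRCm38), where 15 of the 40 genes overlap another gene's exons, and some of their reads may belong to the neighbour.

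In R 4.3.3, genes were filtered with filterByExpr (17696 left), scaled with TMM and fitted with edgeR 4.0.16 (glmQLFit, robust, 7 group means, all 14 libraries, 7 residual degrees of freedom). Tests were two-sided with Benjamini-Hochberg adjustment over all genes in each of 11 comparisons, and SE is the fold change divided by the root of F. The code was tested on simulated data. Members and lists were chosen with earlier results of these data known. All 40 are accounted for, with values per library for those changed at least 2-fold and for the 2 or more with the widest range in each role, and for a few more picked after their values were seen. Alternatives were RLE factors or library totals, DESeq2 1.42.0, a fit restricted to the groups at hand, a block for the replicate number, summed transcript rows, no filter or a stricter one (CPM of 1 in 4 libraries), and leaving out each library.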

Additional observations from a re-analysis of the deposited data

Results flagged for a closer look

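Between 3 and 12 h, 7 of the 40 genes fell without amino acids and rose without glucose, beside 4.95% of all genes tested. The difference between these changes, tested as a contrast chosen after seeing the data, passed for each (edgeR adjusted p under 0.05). That outcome was largely fixed in advance, because these genes were picked by their opposite calls in the same fit. The contrast therefore gives sizes and adds no support. On the log2 scale the difference (amino acid minus glucose starvation) was -1.23 for Sec31a (SE 0.072, adjusted p = 2.04e-14), -0.73 for Sar1a (SE 0.075, adjusted p = 3.26e-09), -0.53 for Tmed9 (SE 0.095, adjusted p = 3.37e-05), -0.53 for Ssr3 (SE 0.08, adjusted p = 2.32e-06), -0.49 for Sec63 (SE 0.083, adjusted p = 1.42e-05), -0.37 for Copa and -0.34 for Copg1. Over the 40 the difference was lower in 21 and higher in 7, beside 25.7% and 21.7% of all genes. With library totals, the falls of Copa, Copg1, Tmed9, Sec63 and Ssr3 between 3 and 12 h without amino acids changed sign, whereas those of Sec31a and Sar1a did not.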

How the results depend on the processing

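Of 288 calls of the 40 genes over 11 comparisons, 93 were of 0.5 or more in size on the log2 scale, and 0 of those were lost or reversed under any alternative. Of all calls, 90 (each under that size) were lost or reversed in at least one. Library totals moved the counts of genes called most. Those called higher were 3 at 3 h and 11 at 12 h without amino acids, 1 at 3 h and 3 at 6 h without glucose, 9 at 12 h without amino acids against without glucose, and 26 between 3 and 12 h without amino acids. Those called lower were 19 at 3 h, 18 at 6 h and 14 at 12 h without glucose, 7 between 3 and 12 h without amino acids, and 4 between 3 and 12 h without glucose. At 3 h without glucose, 13 were called higher with RLE factors and with the stricter filter, 14 with DESeq2, and 5 higher and 3 lower with only the groups compared, against 8 and 5 in the fit reported. With only the groups compared, 2 were called higher at 12 h without amino acids. Without each library in turn, the genes called higher and lower at 3 h without glucose numbered 5 to 8 and 5 to 8, with 5 and 8 without its replicate 2 itself. Those called lower at 12 h without glucose numbered 5 to 6 (lowest without its replicate 2), and those between 3 and 12 h without glucose 4 to 6 (lowest without the 12 h replicate 1). Those called higher at 12 h without amino acids numbered 2 to 4 (lowest without its replicate 1), and at 3 h without amino acids against without glucose 3 to 5 (lowest without glucose replicate 2). With library totals these log2 fold changes changed sign: at 3 h without amino acids against control Arf1 -0.01, and at 12 h without amino acids against without glucose Copb2 0.02, Copg1 0.01, Copg2 0.00, Kdelr3 0.05, Sar1b 0.02, Sec13 0.02, Sec61a1 0.01, and between 3 and 12 h without amino acids Copa 0.16, Copb1 0.12, Copg1 0.17, Sec24a 0.13, Sec63 0.16, Ssr3 0.18, Tmed10 0.14, Tmed9 0.08. The cause was not tested. Replicate numbers did not pair the libraries (correlations of deviations of -0.035 to 0.0536 over 21 pairs of groups). With the replicate number as a block, 0 member calls were lost and 19 gained, and 30 genes were lower at 12 h without amino acids against without glucose, as without the block. Copz2, Copg2 and Tmed3 had the lowest levels, so their values are the least precise.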
